A study of Mus musculus with 2 samples.

Results

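Cxcl12, Apela, Apln and Pdgfa (ligands) and Cxcr4, Ackr3, Aplnr and Pdgfra (their receptors) are the genes described here. They were chosen by symbol, 8 of the 32286 features counted, and each symbol matched 1 feature. Their levels were compared between cell types of wild-type mouse caudal tissue. The tissue was pooled from C57BL/6J embryos at embryonic day 8.5, when the tail end of the embryo is still adding neural tube, somites and hindgut. The labels give 1 group with 2 replicates, each a droplet library made with a 10x Genomics 5′ kit, and no treatment or mutant allele. Whether different embryos went into each library is not stated. The p-values rest on how far differences between classes varied between these libraries, pooled over the classes tested, and that spread may be technical.

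Cxcl12 is a chemokine that guides migrating cells through Cxcr4, a G protein-coupled receptor. Ackr3 is an atypical receptor that binds the same chemokine, takes it up and signals through arrestins. Apela (Elabela) and Apln (apelin) are peptide hormones that share the G protein-coupled receptor Aplnr, known in zebrafish for the movement of mesendodermal cells at gastrulation and in mouse for heart and vessel formation. Pdgfa is a growth factor for Pdgfra, a receptor tyrosine kinase. In mouse embryos Pdgfa is known mainly from epithelia and Pdgfra from the mesenchyme beside them.

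In the GRCm38 annotation (the build also called mm10), Cxcl12 (ENSMUSG00000061353) lies at chr6:117168535-117181367 on the plus strand and Apela (ENSMUSG00000079042) at chr8:65028417-65037336 on the minus strand. Apln lies at chrX:48025146-48034853 and Pdgfa at chr5:138976014-138997370, both on the minus strand. Of the receptors, Cxcr4 lies at chr1:128588199-128592293 on the minus strand, and Ackr3 at chr1:90203980-90216751, Aplnr at chr2:85136225-85139923 and Pdgfra at chr5:75152292-75198215 on the plus strand. Cxcl12 and Apela shared a high level in endoderm, as described below, so the 250 bases before the start of each gene (RefSeq, GRCm38.p6, each on its gene's strand) are shown. The Cxcl12 window is chr6:117168285-117168534 and the Apela window is chr8:65037337-65037586. Capitals mark GTAAACA, the core bound by forkhead factors such as Foxa1 and Foxa2.
Cxcl12: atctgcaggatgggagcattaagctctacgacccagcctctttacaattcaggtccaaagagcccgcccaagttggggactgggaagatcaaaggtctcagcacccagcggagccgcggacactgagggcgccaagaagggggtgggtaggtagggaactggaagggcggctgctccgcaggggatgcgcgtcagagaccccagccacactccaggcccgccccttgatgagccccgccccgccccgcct
Apela: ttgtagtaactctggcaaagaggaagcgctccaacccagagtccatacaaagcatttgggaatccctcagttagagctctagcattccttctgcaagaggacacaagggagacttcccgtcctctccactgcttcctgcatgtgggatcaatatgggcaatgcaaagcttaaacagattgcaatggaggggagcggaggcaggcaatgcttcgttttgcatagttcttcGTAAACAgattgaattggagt
The Apela window held 1 match, which began 21 bases before the start, and the Cxcl12 window held none. Both strands were searched, and 3.17% of 32851 such windows of all genes held GTAAACA. GCCNNNGGC, bound by TFAP2 factors, was searched in the same way and was found in 13.7% of all windows. RefSeq gave 8 windows for 7 of the genes (Pdgfa has a pair, and Aplnr was not matched), of which 1 held GTAAACA and 0 held GCCNNNGGC. A match is a description of the letters and not a binding site.

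Barcodes with at least 2000 unique molecular identifiers (UMIs, counted molecules) and 0.3 to 10% mitochondrial UMIs numbered 11244 in replicate 1 and 8328 in replicate 2. Without those marked as doublets, 10274 and 8055 cells remained, with medians of 17330.5 and 13534 UMIs. Each cell was assigned to the class with most of its 4 to 6 marker genes detected, among 13 classes, and 8438 (82.1%) and 6632 (82.3%) cells were gated. Class names rest on these markers alone, so each stands for an "X-like" class, and the suffix is left out below. None of the 8 genes was a marker. The libraries stand apart in places. Caudal epiblast cells of replicates 1 and 2 fell into different clusters (1575 and 5 cells in the first, 8 and 1085 in the second), and so did neural cells (614 and 49, 13 and 478). The blood class held 0 and 144 cells. Of the 52 cells of replicate 2 gated as extraembryonic endoderm, 49 lay in gut endoderm clusters, and 391 cells of the allantois cluster were gated as lateral plate mesoderm. The caudal epiblast gate held 2658 cells, of which 289 lay in neural clusters and 91 in gut endoderm clusters (29 in replicate 1, 62 in replicate 2). Of 2425 cells gated as presomitic mesoderm, 1418 (58.5%) lay in presomitic clusters. Clusters of classes it is compared with below held 222 (somite), 212 (caudal epiblast) and 233 (lateral plate), and unnamed clusters held 238. Of the barcodes kept, 100 occurred in both libraries. Levels are in CPM, a gene's UMIs in a class of a library as scaled to the summed UMIs of that class there (the usual CPM scale), and are compared within a gene only.

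The ligand Cxcl12 was high in surface ectoderm and gut endoderm. Surface ectoderm had 283 CPM in replicate 1 and 530 CPM in replicate 2 (mean 406 ± 175, SD, n = 2), and gut endoderm had 189 and 314 CPM (mean 251 ± 88.0). Surface ectoderm was the higher of the pair in each library, while the ranges over both libraries overlapped. Extraembryonic endoderm followed with 69.6 and 199 CPM. Allantois had 5.28 and 69.7 CPM, on 5 and 40 UMIs, and somites had 18.4 and 34.0 CPM. Lateral plate mesoderm had 11.6 and 18.6 CPM and presomitic mesoderm 6.46 and 17.9 CPM. Neural cells had the lowest mean, with 3.77 and 3.37 CPM, beside endothelium with 3.15 and 10.1 CPM and caudal epiblast with 6.03 and 5.80 CPM. Cxcl12 was higher in replicate 2 in 8 of 10 classes, with a median log2 difference of 0.51 between the libraries.

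Apela was highest in gut endoderm in the mean, with 271 and 282 CPM (mean 276 ± 7.58, SD, n = 2), above both libraries of every other class that reached 50 cells in both. Extraembryonic endoderm had 56.6 CPM in replicate 1 and 231 CPM in replicate 2, where nearly all of its cells belonged to gut endoderm clusters. Neural cells had 19.9 and 75.5 CPM and caudal epiblast 13.7 and 37.9 CPM, so each was higher in replicate 2. Allantois had 13.7 and 76.6 CPM, on 13 and 44 UMIs, and 8 of its 50 cells in replicate 2 lay in gut endoderm clusters. Lateral plate mesoderm was even, with 19.7 and 24.8 CPM. Presomitic mesoderm, somites, surface ectoderm and endothelium lay between 2.40 and 8.85 CPM. Of 10 classes, 10 had more Apela in replicate 2.

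The other Aplnr ligand, Apln, was low in most classes and had its highest mean level in endothelium. Endothelium had 56.3 CPM in replicate 1 and 17.5 CPM in replicate 2 (mean 36.9 ± 27.5, SD, n = 2), and neural cells had 13.2 and 26.2 CPM, so the ranges of the leading classes overlapped. In replicate 2 alone the neural class was the higher. Caudal epiblast had 13.6 and 6.50 CPM and presomitic mesoderm 8.46 and 4.81 CPM. Extraembryonic endoderm had 24.4 CPM (137 UMIs) in replicate 1 and 0 UMIs in replicate 2. Gut endoderm, the class with most Apela, had 1.71 and 1.46 CPM of Apln.

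Pdgfa was highest in surface ectoderm, at 286 and 418 CPM (mean 352 ± 93.8, SD, n = 2), and no other class overlapped it. Caudal epiblast had 88.1 and 85.3 CPM, neural cells 66.9 and 84.3 CPM and gut endoderm 60.3 and 69.4 CPM, all of them epithelia. Allantois (68.6 and 34.8 CPM), endothelium (19.8 and 42.7 CPM) and extraembryonic endoderm (20.2 and 39.8 CPM) varied more between the libraries. Presomitic mesoderm had 24.9 and 25.9 CPM and lateral plate mesoderm 26.8 and 19.7 CPM. Somites were lowest, with 8.96 and 11.1 CPM.

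Among the receptors, Cxcr4 stayed at or below 14.8 CPM in the 10 classes that reached 50 cells in both libraries. Presomitic mesoderm had 11.2 and 12.9 CPM, neural cells 7.87 and 14.8 CPM, gut endoderm 11.6 and 10.9 CPM and lateral plate mesoderm 10.6 and 8.29 CPM. The order of the leading 3 classes is not settled: neural cells came first in replicate 2 and gut endoderm in replicate 1. Surface ectoderm, where Cxcl12 was high, had 18 and 7 Cxcr4 UMIs (1.09 and 0.794 CPM). Intermediate mesoderm had 41.6 CPM in replicate 2 (58 UMIs in 96 cells), but only 2 UMIs in the 17 cells of replicate 1.

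Ackr3 was highest in lateral plate mesoderm, with 40.2 and 23.5 CPM, gut endoderm, with 34.6 and 17.2 CPM, and neural cells, with 21.9 and 17.6 CPM. The ranges of neighbours in this order overlapped. Presomitic mesoderm had 11.6 and 6.05 CPM and surface ectoderm 8.38 and 6.92 CPM. Endothelium (1.20 and 3.94 CPM) and somites (1.76 and 2.64 CPM) were lowest. Over the 10 classes, Cxcr4 and Ackr3 levels had a Pearson r of 0.68 on the log2(CPM + 20) scale, given as a description since classes of 1 library share depth and free RNA.

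The apelin receptor Aplnr was highest in endothelium among the 10 classes, with 184 CPM in each library, and no other of these classes overlapped it. Somites had 51.5 and 40.2 CPM, lateral plate mesoderm 41.8 and 25.9 CPM, presomitic mesoderm 25.3 and 22.1 CPM and allantois 13.7 and 13.9 CPM. Every other class of this size was below 6 CPM, the gut endoderm with 5.46 and 4.37 CPM included. The notochord class held only 61 and 36 cells and was left out of the tests. Its Aplnr level of 349 and 184 CPM was at or above that of endothelium in each library.

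Among the 10 classes, Pdgfra was highest in somites and in lateral plate, presomitic and allantois mesoderm. Somites had 104 and 92.0 CPM, lateral plate mesoderm 62.5 and 98.5 CPM, presomitic mesoderm 60.2 and 60.5 CPM and allantois 40.1 and 69.7 CPM, and neighbours in this order overlapped except lateral plate and presomitic mesoderm. Extraembryonic endoderm had 16.4 and 28.6 CPM and gut endoderm 10.5 and 14.1 CPM. Caudal epiblast, neural cells, surface ectoderm and endothelium lay between 3.0 and 12.9 CPM. Of the small classes, intermediate mesoderm had 22 UMIs in 17 cells of replicate 1 and 23 in 96 of replicate 2. Notochord had 3 UMIs in 61 cells and 4 in 36. Levels of Pdgfa and Pdgfra over the 10 classes had a Pearson r of -0.67 on the log2(CPM + 20) scale, against 0.44 for Apln and Aplnr, -0.52 for Apela and Aplnr and -0.31 for Cxcl12 and Cxcr4.

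**Figure D1:**
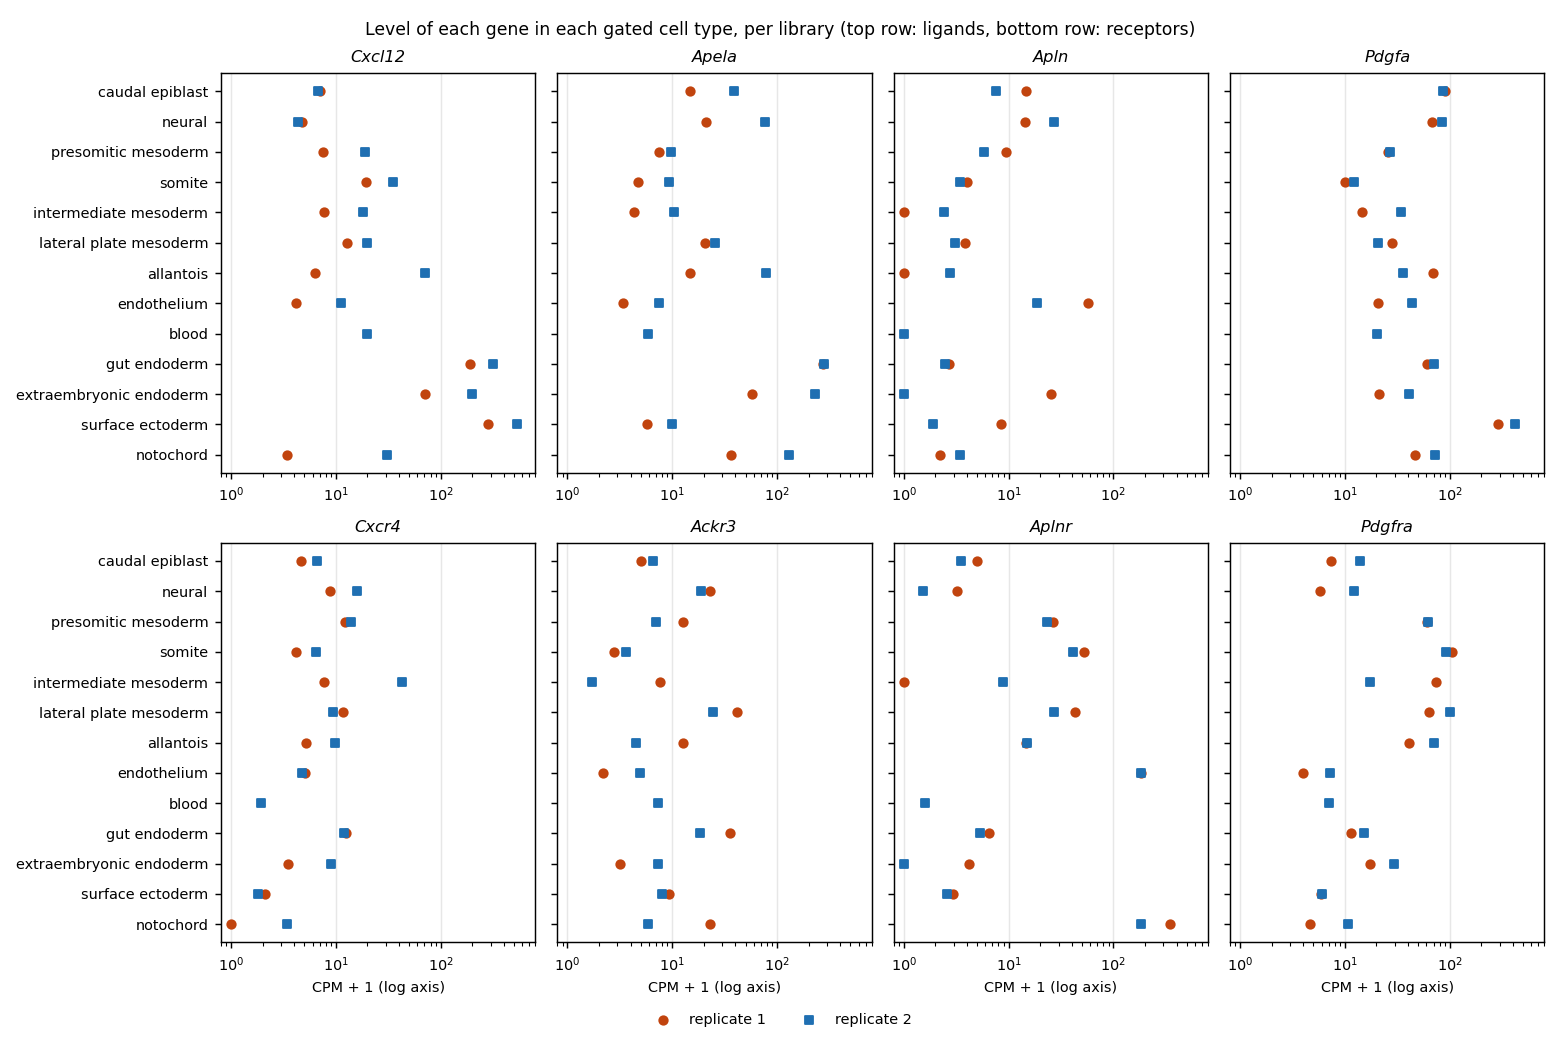
Level of each gene in each gated class, as CPM + 1 on a log axis, with 1 point per library (circles replicate 1, squares replicate 2) and ligands above receptors. Cxcl12 and Pdgfa peak in surface ectoderm, Apela in gut endoderm and Aplnr in endothelium and the small notochord class. Pdgfra is high in the somite, lateral plate, presomitic and allantois classes.

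Because classes differ in size, the class with the highest level was not always the main source of a gene's UMIs. Surface ectoderm held 9.84% of gated cells in replicate 1 and 9.35% in replicate 2 but 51.3% and 63.0% of Cxcl12 UMIs and 43.8% and 52.3% of Pdgfa UMIs. Gut endoderm held 67.2% and 34.3% of Apela UMIs and 32.9% and 17.4% of Cxcl12 UMIs, with 8.68% and 4.61% of gated cells. Lateral plate mesoderm, the largest class with 30.4% and 34.5% of gated cells, held 62.5% and 63.0% of Ackr3, 56.3% and 62.4% of Pdgfra, 44.6% and 35.9% of Aplnr and 45.7% and 34.3% of Cxcr4 UMIs. Endothelium, at 3.78% and 4.28% of gated cells, held 26.2% and 32.6% of Aplnr and 26.0% and 16.1% of Apln UMIs. Caudal epiblast held 26.5% and 23.1% of Apln UMIs although its level was lower than that of endothelium in each library.

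**Figure D2:**
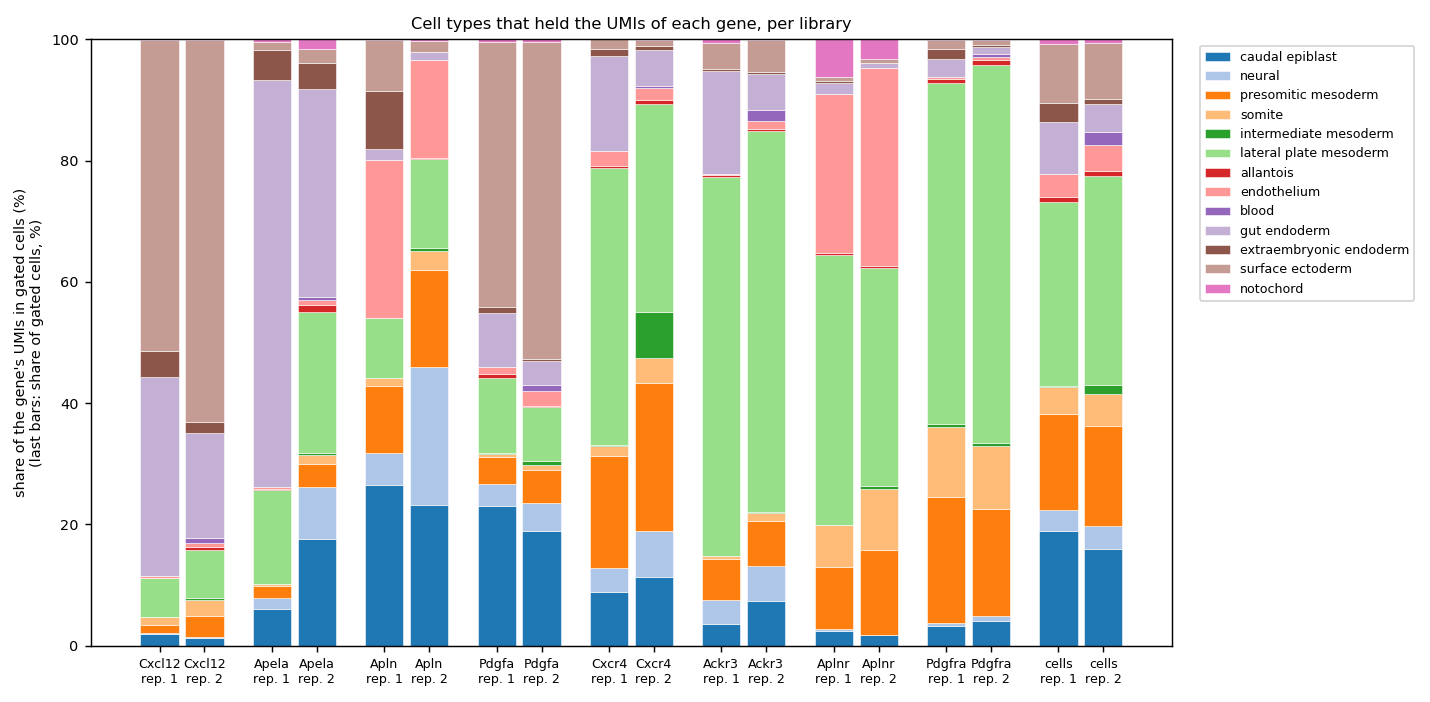
Share of each gene's UMIs in gated cells that came from each class (stacked bars, percent), per library, with the shares of gated cells as the last bars. Surface ectoderm is 9.84% and 9.35% of the gated cells and holds 51.3% and 63.0% of Cxcl12 UMIs.

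Fold changes between classes were tested with edgeR's quasi-likelihood test with library as a block, adjusted by Benjamini-Hochberg over 13964 genes, and a gene with adjusted p below 0.05 is said to have risen or fallen. Log2 fold changes are given ± SE, where the SE was derived from the log2 fold change and its test statistic. All 8 genes were tested in all 8 comparisons. Several comparisons share a reference class, so they are not independent.

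The first comparison asks what differs as caudal epiblast, the source layer of the trunk, gives way to presomitic mesoderm. The receptors Aplnr, Pdgfra and Cxcr4 rose, and the ligands Pdgfa and Apela fell. Aplnr had 25.3 and 22.1 CPM in presomitic mesoderm against 3.97 and 2.48 CPM in caudal epiblast (log2 2.81 ± 0.23, edgeR adjusted p = 5.06e-06). Pdgfra had 60.2 and 60.5 CPM against 6.42 and 12.9 CPM (2.70 ± 0.26, edgeR adjusted p = 2.26e-05), and Cxcr4 had 11.2 and 12.9 CPM against 3.65 and 5.54 CPM (1.37 ± 0.29, edgeR adjusted p = 0.0097). Pdgfa had 24.9 and 25.9 CPM against 88.1 and 85.3 CPM (-1.78 ± 0.27, edgeR adjusted p = 0.00108). The classes did not overlap for these genes, although Pdgfra in caudal epiblast differed between the libraries. Apela had 6.46 and 8.80 CPM in presomitic mesoderm against 13.7 and 37.9 CPM in caudal epiblast (-1.60 ± 0.41, edgeR adjusted p = 0.0287). Of all genes tested, 6.98% changed (3.36% rose and 3.62% fell), against 3 and 2 of the 8 genes. Cxcl12 (0.81 ± 0.38), Ackr3 (0.83 ± 0.38) and Apln (-0.57 ± 0.57) did not pass. The libraries alone gave 0.064 and 1.62 for Cxcl12 and 1.44 and 0.14 for Ackr3, and Cxcl12 passed at a lead of 2 markers in the gate (1.41, edgeR adjusted p = 0.00951). Without library as a block, Cxcr4 (edgeR adjusted p = 0.0755) and Apela (0.359) did not pass either, and Apela also missed the threshold with clusters in place of the gate (0.057) and with doublet calls kept (0.0695).

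Neural cells set against the same caudal epiblast differed in the Cxcl12 receptors. Ackr3 rose, with 21.9 and 17.6 CPM in neural cells against 4.04 and 5.54 CPM in caudal epiblast (2.0 ± 0.40, edgeR adjusted p = 0.00958). Cxcr4 rose as well, with 7.87 and 14.8 CPM against 3.65 and 5.54 CPM (1.24 ± 0.31, edgeR adjusted p = 0.0396). Of all genes, 4.06% changed (1.81% rose and 2.25% fell), against 2 and 0 of the 8. The Aplnr ligands varied between libraries: Apela had 19.9 and 75.5 CPM against 13.7 and 37.9 CPM (0.82 ± 0.39, edgeR adjusted p = 0.394), and Apln had 13.2 and 26.2 CPM against 13.6 and 6.50 CPM (1.10 ± 0.59, edgeR adjusted p = 0.472). Aplnr itself had 13 and 2 UMIs in neural cells (log2 -1.06 ± 0.38, edgeR adjusted p = 0.181). The Cxcr4 call was lost at 3 markers in the gate, at a lead of 2 markers, with doublet calls kept, with clusters and without the block (edgeR adjusted p from 0.0534 to 0.165), and the Ackr3 call without the block (0.0698). Apela passed under 3 alternatives, at 3 markers in the gate (1.41, edgeR adjusted p = 0.0266), at a lead of 2 markers (1.78, 0.0133) and with clusters (1.99, 0.00385), and with clusters Aplnr fell (-2.36, edgeR adjusted p = 0.000194).

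Somites form from presomitic mesoderm. Relative to it, Aplnr rose and Ackr3, Cxcr4 and Pdgfa fell in somites. Aplnr had 51.5 and 40.2 CPM in somites against 25.3 and 22.1 CPM in presomitic mesoderm (0.96 ± 0.20, edgeR adjusted p = 0.00951). Ackr3 had 1.76 and 2.64 CPM (11 and 15 UMIs) against 11.6 and 6.05 CPM (-1.89 ± 0.50, edgeR adjusted p = 0.0356), and the log2 fold was -2.56 in replicate 1 and -1.16 in replicate 2. Cxcr4 had 3.20 and 5.46 CPM against 11.2 and 12.9 CPM (-1.44 ± 0.33, edgeR adjusted p = 0.0149). Pdgfa had 8.96 and 11.1 CPM against 24.9 and 25.9 CPM (-1.32 ± 0.32, edgeR adjusted p = 0.0224). No class range overlapped for these genes. Of all genes, 6.40% changed (2.81% rose and 3.59% fell), against 1 and 3 of the 8. Pdgfra (104 and 92.0 CPM against 60.2 and 60.5 CPM, 0.73 ± 0.24, edgeR adjusted p = 0.0951) and Cxcl12 (18.4 and 34.0 CPM against 6.46 and 17.9 CPM, 1.18 ± 0.38, edgeR adjusted p = 0.0906) did not pass. Cxcl12 passed under 5 of the alternatives, and Pdgfra passed with doublet calls kept (0.77, edgeR adjusted p = 0.0392). None of the calls passed without library as a block (edgeR adjusted p from 0.0575 to 0.25), Ackr3 (0.19) and Pdgfa (0.466) were lost with clusters, and Aplnr had an adjusted p of 0.0547 by DESeq2.

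Lateral plate mesoderm, which lies beside the presomitic mesoderm, had more Ackr3 and Apela. Ackr3 had 40.2 and 23.5 CPM in lateral plate mesoderm against 11.6 and 6.05 CPM in presomitic mesoderm (1.82 ± 0.35, edgeR adjusted p = 0.00342). Apela had 19.7 and 24.8 CPM against 6.46 and 8.80 CPM (1.55 ± 0.40, edgeR adjusted p = 0.0228). Both libraries of lateral plate mesoderm lay above both of presomitic mesoderm. Of all genes, 10.3% changed (5.79% rose and 4.48% fell), against 2 and 0 of the 8. Pdgfra (0.35 ± 0.23), Aplnr (0.47 ± 0.19), Cxcr4 (-0.33 ± 0.27), Cxcl12 (0.39 ± 0.35), Pdgfa (-0.12 ± 0.27) and Apln (-1.36 ± 0.58) did not pass. The Apela call was lost without the block (edgeR adjusted p = 0.403) and with doublet calls kept (0.07). Aplnr passed with clusters (0.76, edgeR adjusted p = 0.0133) and at a lead of 2 markers (0.68, 0.00816). Apln passed in barcodes under 0.3% mitochondrial UMIs (-0.97, edgeR adjusted p = 0.0212).

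Endothelium was set against lateral plate mesoderm, a known source of embryonic vessels. Aplnr and its ligand Apln rose together in endothelium, and Pdgfra, Ackr3, Apela and Cxcr4 fell. Aplnr had 184 CPM in each library of endothelium against 41.8 and 25.9 CPM in lateral plate mesoderm (2.59 ± 0.20, 6.00-fold, edgeR adjusted p = 4.16e-07). Apln had 56.3 and 17.5 CPM against 2.87 and 2.06 CPM (3.85 ± 0.61, edgeR adjusted p = 0.000258), with log2 folds of 4.37 and 3.07 in replicates 1 and 2. Of the genes that fell, Pdgfra had 3.0 and 6.16 CPM against 62.5 and 98.5 CPM (-4.02 ± 0.32, edgeR adjusted p = 5.15e-07). Ackr3 had 1.20 and 3.94 CPM (8 and 16 UMIs) against 40.2 and 23.5 CPM (-3.57 ± 0.48, edgeR adjusted p = 6.97e-05), with log2 folds of -4.76 and -2.44 in the single libraries. Apela had 2.40 and 6.41 CPM against 19.7 and 24.8 CPM (-2.35 ± 0.52, edgeR adjusted p = 0.0034), and Cxcr4 had 4.04 and 3.70 CPM against 10.6 and 8.29 CPM (-1.13 ± 0.34, edgeR adjusted p = 0.0202). Of all genes, 29.8% changed (15.0% rose and 14.8% fell), against 2 and 4 of the 8. Cxcl12 (-1.19 ± 0.45, edgeR adjusted p = 0.0593) and Pdgfa (0.45 ± 0.29, edgeR adjusted p = 0.26) did not pass, and Cxcl12 passed under 5 alternatives. Without the block Cxcr4 (0.0592) and Apela (0.0734) were lost, and Cxcr4 was also lost with clusters (0.415).

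Gut endoderm was rich in ligands and poor in the receptors Aplnr and Pdgfra when set against the lateral plate mesoderm around it. Cxcl12 had 189 and 314 CPM in gut endoderm against 11.6 and 18.6 CPM in lateral plate mesoderm (4.03 ± 0.36, 16.4-fold, edgeR adjusted p = 3.47e-06). Apela had 271 and 282 CPM against 19.7 and 24.8 CPM (3.68 ± 0.40, 12.8-fold, edgeR adjusted p = 1.45e-05), and Pdgfa had 60.3 and 69.4 CPM against 26.8 and 19.7 CPM (1.44 ± 0.27, edgeR adjusted p = 0.00123). Aplnr fell, with 5.46 and 4.37 CPM against 41.8 and 25.9 CPM (-2.74 ± 0.24, edgeR adjusted p = 2.86e-06), and so did Pdgfra, with 10.5 and 14.1 CPM against 62.5 and 98.5 CPM (-2.68 ± 0.27, edgeR adjusted p = 7.74e-06). Of all genes, 26.8% changed (16.1% rose and 10.7% fell), against 3 and 2 of the 8. The Cxcl12 receptors did not pass: Cxcr4 had 11.6 and 10.9 CPM against 10.6 and 8.29 CPM (0.26 ± 0.28, edgeR adjusted p = 0.545), and Ackr3 had 34.6 and 17.2 CPM against 40.2 and 23.5 CPM (-0.26 ± 0.34, edgeR adjusted p = 0.61). Apln, at 27 and 6 UMIs in gut endoderm, did not pass (-0.74 ± 0.77). The 5 calls held under all alternatives that kept both libraries except that Aplnr was lost in barcodes under 0.3% mitochondrial UMIs (edgeR adjusted p = 0.192).

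Surface ectoderm and neural cells, the outer and inner derivatives of the ectoderm, differed in 6 of the 8 genes. Cxcl12 had 283 and 530 CPM in surface ectoderm against 3.77 and 3.37 CPM in neural cells (6.60 ± 0.48, edgeR adjusted p = 1.01e-06). The neural level rested on 22 and 13 UMIs and is read as background in replicate 2 below, so the size of the fold is not firm. Pdgfa had 286 and 418 CPM against 66.9 and 84.3 CPM (2.16 ± 0.28, edgeR adjusted p = 6.8e-05). The Cxcl12 receptors fell: Cxcr4 had 1.09 and 0.794 CPM against 7.87 and 14.8 CPM (-3.29 ± 0.38, edgeR adjusted p = 2.77e-05, log2 -2.70 and -4.02 in the single libraries), and Ackr3 had 8.38 and 6.92 CPM against 21.9 and 17.6 CPM (-1.40 ± 0.39, edgeR adjusted p = 0.0189). Both Aplnr ligands fell too. Apela had 4.68 and 8.85 CPM against 19.9 and 75.5 CPM (-2.69 ± 0.44, edgeR adjusted p = 0.000549, log2 -2.07 and -3.14 in the single libraries). Apln had 7.47 and 0.908 CPM against 13.2 and 26.2 CPM (-2.37 ± 0.65, edgeR adjusted p = 0.0157), and its size rested on replicate 2, since the log2 fold was -0.83 in replicate 1 and -4.67 in replicate 2. Of all genes, 24.5% changed (13.9% rose and 10.6% fell), against 2 and 4 of the 8. Aplnr (0.19 ± 0.43) and Pdgfra (-0.59 ± 0.34) did not pass. Ackr3 (0.08) and Apln (0.146) were lost without the block, and Ackr3 was lost with clusters (0.082).

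Allantois, the extraembryonic mesoderm that joins the tail end, held only 59 and 50 gated cells and gave no call among the 8 genes against lateral plate mesoderm. Of all genes, 0.0645% changed (0.0501% rose and 0.0143% fell). By edgeR, 3 of the 8 had an unadjusted p under 0.05, as did 8.22% of all genes tested, and DESeq2 called 0 of the 8. Aplnr had 13.7 and 13.9 CPM in allantois against 41.8 and 25.9 CPM in lateral plate mesoderm (-1.36 ± 0.34, edgeR adjusted p = 0.222), Pdgfa 68.6 and 34.8 CPM against 26.8 and 19.7 CPM (1.16 ± 0.36, edgeR adjusted p = 0.333) and Ackr3 11.6 and 3.48 CPM against 40.2 and 23.5 CPM (-1.98 ± 0.61, edgeR adjusted p = 0.333). With clusters in place of the gate, which moves 391 cells gated as lateral plate mesoderm into allantois, Pdgfa rose (1.79, edgeR adjusted p = 0.0011) and Aplnr (-1.92, edgeR adjusted p = 0.000282) and Ackr3 (-1.36, edgeR adjusted p = 0.0467) fell.

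**Figure D3:**
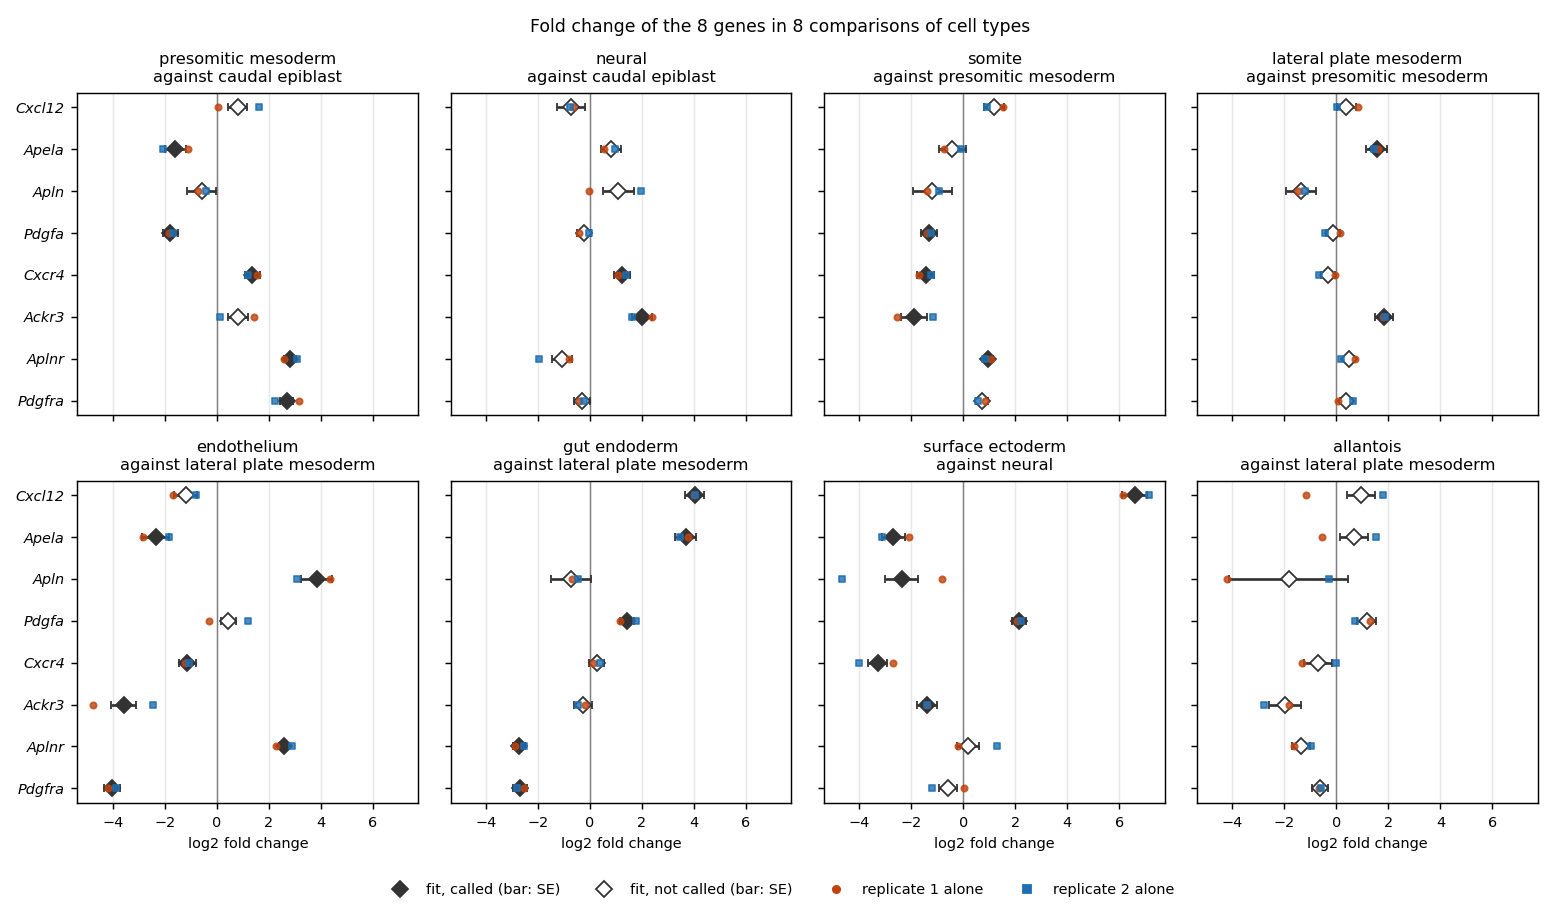
Log2 fold change of the 8 genes in the 8 comparisons (diamonds, filled where the edgeR adjusted p is below 0.05, bars SE), with the fold in each library alone as small points. Cxcl12 in surface ectoderm stands at 6.60 over a neural level not told apart from background in replicate 2, and no gene was called in allantois.

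To ask whether levels reflected many cells or a few, each cell was thinned at random to 10000 UMIs, and cells with at least 1 UMI of a gene were counted (shares with exact Clopper-Pearson 95% intervals, which cover counting error only). Thinning left out between 2 and 598 cells of a class in a library. The blood class of replicate 2, named by red cell markers such as Gata1 and Klf1, served as the class that should lack these genes. Of its 134 thinned cells, 5.22% had Cxcl12, 4.48% Apela, 3.73% Ackr3, 0.746% Aplnr and 6.72% each Pdgfa and Pdgfra, and 0 had Cxcr4 or Apln, which allows up to 2.72%. A single blood cell held 40.3% of that class's Cxcl12 UMIs. Of the 7 thinned blood cells with Cxcl12, 6 also had Pdgfa (0.47 if independent), so these UMIs were not spread evenly. Blood had a median of 22953 UMIs per cell before thinning and gut endoderm of the same library 12934. Replicate 1 had no blood class. In replicate 2, shares of Cxcl12 in caudal epiblast (3.02%), neural cells (1.82%) and endothelium (3.72%) lay at or below the blood level. The same held for Pdgfra in surface ectoderm (2.37%) and endothelium (3.72%) and for Apela in endothelium (2.79%) and surface ectoderm (3.56%). Ackr3 in somites (2.36%) and endothelium (2.79%) also lay at or below it. The blood intervals reached 12.4% for Pdgfa and Pdgfra, 8.49% for Ackr3, 4.09% for Aplnr and 2.72% for Cxcr4. Shares of replicate 2 inside them included Pdgfra in caudal epiblast (10.5%) and gut endoderm (11.4%) and Pdgfa in somites (9.76%). Others were Aplnr in neural cells (0.455%), caudal epiblast (2.02%) and gut endoderm (2.11%). Ackr3 in caudal epiblast (6.05%) and Cxcr4 in surface ectoderm (0.593%) lay inside too. Neither these nor the shares above could be told apart from background, so folds that rest on them have no firm size.

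Apart from that, the high classes were broadly positive. Cxcl12 was found in 68.7% (95% interval 65.2 to 72.0) of surface ectoderm cells of replicate 1 and 83.0% (79.4 to 86.2) of replicate 2, and in 46.5% (42.7 to 50.4) and 76.4% (70.4 to 81.6) of gut endoderm cells. Pdgfa was found in 87.8% (85.2 to 90.0) and 94.7% (92.3 to 96.5) of surface ectoderm cells and in 56.6% and 54.8% of caudal epiblast cells. Apela was found in 82.1% (78.9 to 84.9) and 84.4% (79.1 to 88.8) of gut endoderm cells. Without thinning the same shares were 73.6% and 82.7%, 51.2% and 74.2%, 90.7% and 96.3%, 70.0% and 64.8%, and 88.8% and 85.9%. Apln was sparse even where it was highest, at 30.6% (25.3 to 36.4) and 10.2% (6.52 to 15.1) of endothelial cells, while Aplnr was found in 75.4% (70.0 to 80.4) and 74.4% (68.0 to 80.1) of them. In notochord, Aplnr was found in 40 of 45 and 15 of 25 thinned cells.

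The other receptors were found in fewer cells. Pdgfra was found in 59.9% (54.2 to 65.5) and 57.9% (52.1 to 63.6) of somite cells, 42.3% and 54.2% of lateral plate cells and 44.0% and 41.3% of presomitic cells. Ackr3 reached 27.9% (26.0 to 29.8) and 18.4% (16.6 to 20.3) in lateral plate mesoderm, 20.2% and 11.8% in gut endoderm and 15.0% and 16.8% in neural cells. Cxcr4 reached 14.5% (10.2 to 19.9) in neural cells of replicate 2, 8.92% and 11.4% in presomitic mesoderm and 9.49% and 10.5% in gut endoderm. In surface ectoderm 1.22% and 0.593% of cells had Cxcr4, against 68.7% and 83.0% with Cxcl12.

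Cells with both a ligand and its receptor were counted after thinning. In endothelium, Apln and Aplnr were found together in 23.5% (18.7 to 28.9) of cells of replicate 1 and 7.44% (4.31 to 11.8) of replicate 2, or 66 and 16 cells, where independent detection would give 64.9 and 16.4 cells. Cxcl12 and Cxcr4 shared 42 of 664 gut endoderm cells in replicate 1 (29.3 if independent) and 20 of 237 in replicate 2 (19.1 if independent). Cxcl12 and Ackr3 shared 32 and 21 of these cells, against 62.4 and 21.4 if independent. Pdgfa and Pdgfra shared 7.26% and 6.04% of presomitic cells, or 70 and 50 cells against 81.4 and 69.8 if independent. In lateral plate mesoderm the pair shared 7.38% and 9.59% of cells (164 and 162, against 185 and 150). Of somite cells 4.97% and 5.05% had both (15 and 15, against 13.8 and 16.8). Apela and Aplnr shared 4.46% and 3.37% of lateral plate cells (99 and 57, against 86.1 and 48.6). In the small classes, Pdgfa and Pdgfra shared 8 of 45 and 3 of 29 allantois cells, and Apela and Aplnr shared 8 of 45 and 7 of 25 notochord cells. Among genes that were high in the same class, Cxcl12 and Pdgfa, 2 ligands, were found together in 62.2% and 80.0% of surface ectoderm cells, Cxcl12 and Apela in 41.1% and 65.0% of gut endoderm cells, and Aplnr and Pdgfra, 2 receptors, in 24.2% and 16.8% of somite cells. Of these, Cxcl12 and Apela in gut endoderm came to 273 and 154 cells, against 254 and 153 if independent. For Cxcl12 and Pdgfa in surface ectoderm the counts were 457 and 405, against 443 and 398. For Aplnr and Pdgfra in somites the counts were 73 and 50, against 64.1 and 48.6.

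**Figure D4:**
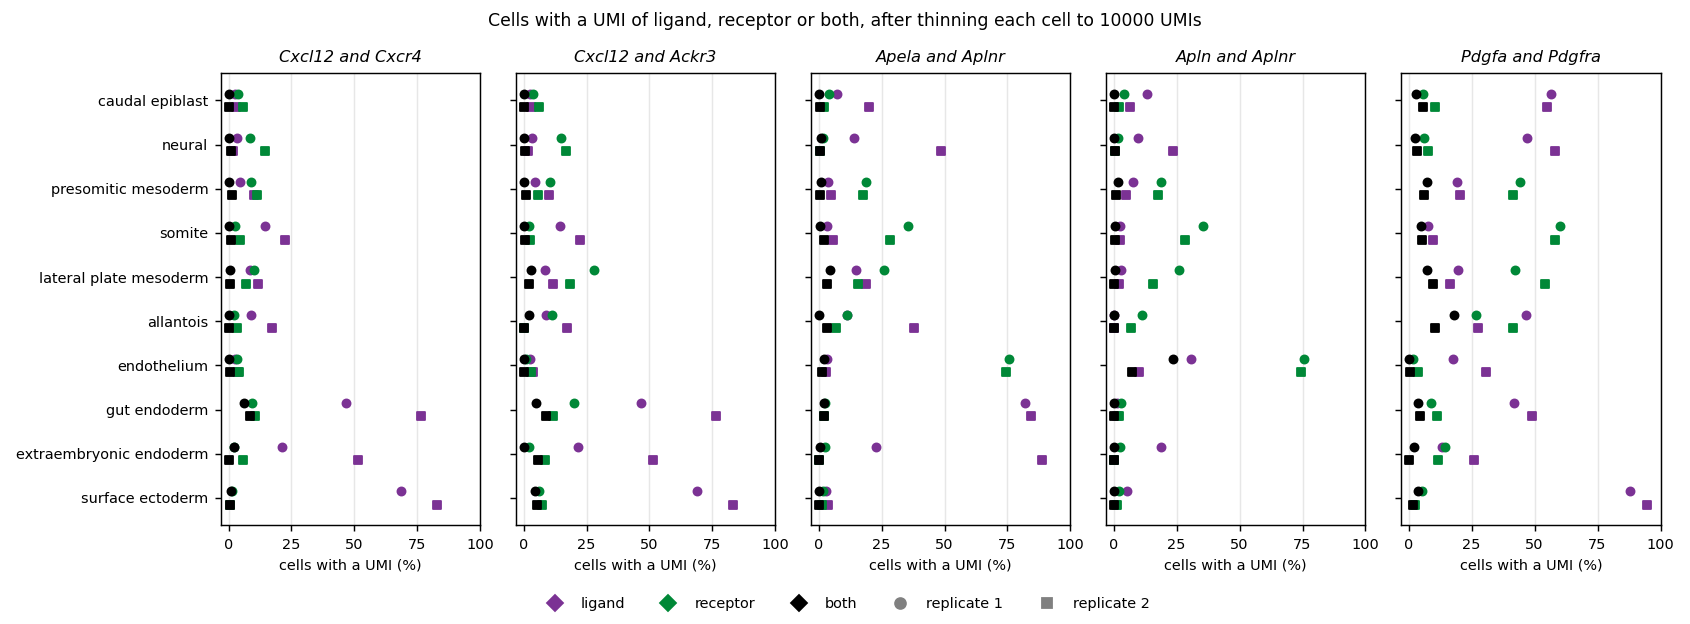
Share of thinned cells with a UMI of the ligand, the receptor or both, for 5 ligand and receptor pairs in 10 classes (circles replicate 1, squares replicate 2). Surface ectoderm has Cxcl12 in 68.7% and 83.0% of cells and Cxcr4 in 1.22% and 0.593%, gut endoderm has Cxcl12 with both of its receptors, and the share with both is highest for Apln and Aplnr in endothelium of replicate 1, at 23.5%.

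Within broad classes the levels were not uniform. The following splits use marker genes picked after the values were seen, some of them also gate markers, and carry no test. Foxf1 is known as a factor of the inner (splanchnic) layer of lateral plate mesoderm and Prrx1 of the outer (somatic) layer. Cells with Foxf1 and without Prrx1 (1088 and 899 cells) had 60.2 and 54.0 CPM of Aplnr, against 13 and 5.20 CPM in cells with Prrx1 and without Foxf1 (143 and 290 cells). Cxcr4 followed the same order, at 11.9 and 10.3 CPM against 4.87 and 5.44 CPM, whereas Pdgfra had 59.0 and 107 CPM against 56.0 and 84.1 CPM. Presomitic cells with Mesp2 or Ripply2, genes of the forming somite border (247 and 221 cells), had 11.8 and 39.3 CPM of Cxcl12, against 4.88 and 11.7 CPM in presomitic cells with Msgn1 and without either (965 and 766 cells), and Cxcr4 had 8.69 and 9.29 CPM against 12.5 and 14.6 CPM.

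Barcodes under 0.3% mitochondrial UMIs were left out above, and ligands and receptors differed in them. For each gene, its UMIs in these barcodes were divided by the number it would have at the level of the cells with 0.3 to 10%, in the same 8 classes. All 4 receptors had low ratios, at 0.462 and 0.256 for Cxcr4, 0.378 and 0.220 for Ackr3, 0.353 and 0.132 for Aplnr and 0.207 and 0.0662 for Pdgfra in replicates 1 and 2. All 4 ligands lay higher, at 0.651 and 0.733 for Cxcl12, 0.925 and 1.22 for Apela, 1.01 and 1.07 for Apln and 0.827 and 0.792 for Pdgfa. Over all genes with at least 20 UMIs at that level the median ratio was 0.799 in replicate 1 (14007 genes) and 0.793 in replicate 2 (12230 genes). Only 2.5% and 0.597% of genes had a lower ratio than Pdgfra, and 9.29% and 3.22% a lower ratio than Aplnr. For Ackr3 these shares were 10.7% and 8.30%, and for Cxcr4 they were 16.8% and 10.1%. In lateral plate mesoderm Pdgfra had 13.1 and 5.70 CPM in barcodes under 0.3% against 62.5 and 98.5 CPM in the cells kept, while Apela had 15.7 and 30.1 CPM against 19.7 and 24.8 CPM. The pattern was noticed in the data and carries no test. In a fit on these barcodes alone, the calls of Ackr3 in neural cells (0.24) and somites (-0.56), Apela in endothelium (-1.24), Aplnr in gut endoderm (-0.77) and Apela (-1.71) and Apln (-0.97) in surface ectoderm missed the threshold, and Ackr3 in surface ectoderm turned to 0.21 on the log2 scale.

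**Figure D5:**
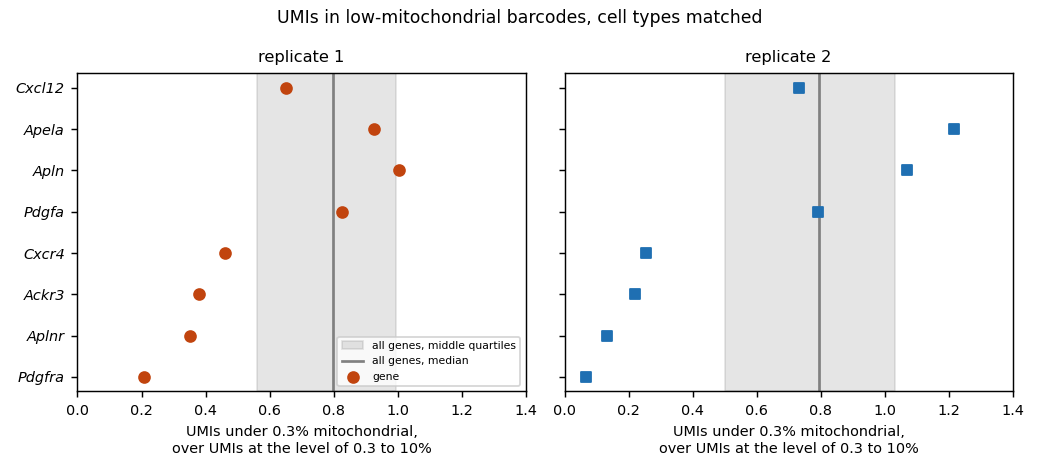
Ratio of a gene's UMIs in barcodes under 0.3% mitochondrial UMIs to the number at the level of the cells kept, over 8 matched classes, per library (line and band: median and middle quartiles of all genes). The 4 receptors lie left of the band in each library, and Cxcl12 and Pdgfa lie inside it.

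Genes with the most similar pattern over the 10 classes were named by their Pearson r with each of the 8 genes (log2(CPM + 20), 7691 genes compared, no p). For Cxcl12 they were Dstn, Fermt1 and Rab25 (0.98, 0.97 and 0.97), each highest in surface ectoderm. For Apela they included the carboxypeptidase genes Cpn1 and Cpm (0.96 and 0.93), both highest in gut endoderm, where they had 246 and 177 CPM and 221 and 289 CPM. For Aplnr they were Ets1, a vascular transcription factor, Tspan2 and Ifnar2 (0.96, 0.95 and 0.95), highest in endothelium. Pdgfa resembled Poc1a, Susd4 and Tfap2c (0.93, 0.91 and 0.90), and Pdgfra resembled Mfap4, Tmem222 and Snx18 (0.93, 0.92 and 0.92). Apln resembled Eef1akmt4, Rps16 and Mfng (0.92, 0.91 and 0.87). Cxcr4 and Ackr3 had no near match, with 0.75, 0.73 and 0.72 for Cxcr4 (Lnpk, Setd1b and Ly6e) and 0.73, 0.72 and 0.70 for Ackr3 (Mdk, AU020206 and Tmem138). Since Cxcr4 levels of at most 14.8 CPM lie below the 20 CPM added, its lower r says little about its pattern. In single libraries r was often lower, as for Rps16 with Apln (0.74 and 0.63) and Mdk with Ackr3 (0.61 and 0.47). It was not always so, with 0.85 and 0.45 for AU020206.

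Other genes of the same pathways were followed as 6 lists. The other PDGF genes comprised 5 genes, all tested. In surface ectoderm against neural cells 4 of the 5 rose and 0 fell (median log2 2.28, against 0.01 over all genes, of which 24.5% changed), led by the ligand Pdgfc with 36.1 and 33.9 CPM against 2.23 and 2.59 CPM (3.74 ± 0.45, edgeR adjusted p = 3.86e-05). In endothelium against lateral plate mesoderm 1 rose and 3 fell, where 29.8% of all genes changed, and the one that rose was the ligand Pdgfb, with 23.8 and 21.0 CPM against 0.280 and 0.127 CPM (6.02 ± 0.41, edgeR adjusted p = 2.3e-07). The receptor Pdgfrb, the list's most abundant gene over the classes, was higher in somites than in presomitic mesoderm, with 45.7 and 77.2 CPM against 6.67 and 11.9 CPM (2.73 ± 0.27, edgeR adjusted p = 3.11e-05), where 1 of the 5 rose and 6.40% of all genes changed.

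Of 37 other chemokine and chemokine receptor genes, 28 were too low to be tested, and Ccl25 was the most abundant over the classes, with a mean of 15.4 CPM. Of the 9 tested, 4 rose and 1 fell in endothelium against lateral plate mesoderm, where 29.8% of all genes changed, led by the atypical receptor Ackr1 with 10.0 and 12.1 CPM against 0.220 and 0.127 CPM (5.13 ± 0.47, edgeR adjusted p = 6.53e-06). In surface ectoderm against neural cells 2 of the 9 rose, close to the 24.5% of all genes that changed there, and the chemokine Cxcl14 had 7.41 and 31.1 CPM against 0 and 0.259 CPM (edgeR adjusted p = 0.000285).

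Among 6 peptide-processing and peptide-cleaving enzymes, 5 were tested. In gut endoderm against lateral plate mesoderm 3 rose and 1 fell, where 26.8% of all genes changed, and Dpp4, a peptidase known to cleave the amino end of Cxcl12, had 95.8 and 87.9 CPM against 0.781 and 0.475 CPM (6.85 ± 0.34, edgeR adjusted p = 4.96e-08). Dpp4 was also higher in neural cells than in caudal epiblast, with 13.5 and 4.67 CPM against 3.05 and 1.78 CPM (1.85 ± 0.35, edgeR adjusted p = 0.00673). Mme, the peptidase neprilysin, was higher in lateral plate than in presomitic mesoderm, with 14.9 and 4.90 CPM against 0.998 and 0.344 CPM (3.54 ± 0.37, edgeR adjusted p = 2.55e-05).

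Signal transducers were called in several comparisons. Of 17 tested G protein and arrestin genes, 11 rose and 2 fell in endothelium against lateral plate mesoderm (median log2 0.71, against -0.08 over all genes, of which 29.8% changed), led by the G protein gamma subunit Gng11 with 219 and 277 CPM against 4.95 and 4.65 CPM (5.75 ± 0.27, edgeR adjusted p = 4.42e-09). Of 12 receptor kinase transducers, 6 rose and 1 fell there (median log2 0.44), led by the adaptor Gab1 with 59.9 and 65.3 CPM against 13.4 and 14.5 CPM (2.26 ± 0.25, edgeR adjusted p = 9.53e-06). The G protein and arrestin list also had 4 higher and 3 lower in gut endoderm against lateral plate mesoderm (26.8% of all genes changed), 2 higher and 2 lower in surface ectoderm against neural cells (24.5%) and 2 higher and 1 lower in lateral plate against presomitic mesoderm (10.3%). The kinase transducer list had 4 higher in surface ectoderm against neural cells and 1 higher in gut endoderm. The other comparisons called at most 2 genes of either list. Of 4 tested class III receptor kinases and their ligands, relatives of the PDGF receptors, Kit was higher in lateral plate than in presomitic mesoderm (24.5 and 52.4 CPM against 7.83 and 8.66 CPM, 2.10 ± 0.33, edgeR adjusted p = 0.000735). Kitl, the Kit ligand, was the most abundant of that list over the classes.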

How the data were processed

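Single-cell RNA-seq of E8.5 caudal tissue was deposited as UMI counts per feature and barcode (2 libraries, 295866003 and 150964773 UMIs in 30449 and 18245 barcodes, 761 barcodes in both). The deposited counts are raw, and the submitters' processing notes name Cell Ranger 6.1.1 and mm10. The 8 genes and all lists and markers were chosen with earlier results of these data known. Barcodes with at least 2000 UMIs and 0.3 to 10% mitochondrial UMIs were used. Scrublet (scanpy 1.11.5) marked 8.63% and 3.28% of these as doublets. The expected rates of 24.4% and 14.6% were higher, but they were computed from all deposited barcodes, so the comparison is not like for like. Doublets may remain. A cell was gated to a class if at least 2 of its markers were detected and every other class had at least 1 fewer; 2935 and 2396 gated cells lay near that limit.

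Counts were summed per library and class. edgeR 4.0.16 (R 4.3.3, TMM, filterByExpr, quasi-likelihood test, prior count 2) was fitted to the 10 classes that reached 50 cells in both libraries, with library as a block because all classes of a library share it. The scripts were tested on simulated data. Over the 8 comparisons, 0 to 4.6% of simulated 1.5-fold, 8.1 to 25% of 2-fold and 50 to 93.9% of 4-fold changes were recovered. A gene that did not pass is therefore not shown to be unchanged. All 8 genes are named. List genes were picked as the most abundant of a list or as its largest called fold in a comparison, and only some of those picked are named. Genes with a like pattern had to reach 20 CPM. The 3 with the highest r are named for each of the 8, except 1 gene that is not reported here. Alternatives comprised DESeq2 1.42.0, its size factors, no low-count filter, stricter gates, doublets kept, Leiden clusters, 5000 UMIs, barcodes under 0.3% mitochondrial UMIs, no block and each library alone. Intervals cover counting error only.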

Additional observations from a re-analysis of the deposited data

Results flagged for a closer look

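The count tables hold a feature named eGFP, a fluorescent protein gene that wild-type tissue lacks and that no comparison here uses. It had 1295 UMIs in the deposited barcodes of replicate 1 and 548 in replicate 2, and was found in 586 and 332 of the cells kept. It is listed because it is a signal outside the genes compared, and its source was not tested.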

How the results depend on the processing

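Of 30 calls, all kept their direction in each library alone, which allows no test. All 30 were kept with DESeq2 size factors, with no filter on low counts, at 5000 UMIs, and without the allantois and extraembryonic endoderm classes (the last chosen after seeing the data), and 29 were kept by the DESeq2 Wald test and at each stricter gate, 27 with doublet calls kept and 24 with clusters. Without library as a replicate block 17 were kept, and the number called was 3 for presomitic mesoderm against caudal epiblast, 0 for neural cells against caudal epiblast, 0 for somites and 1 for lateral plate mesoderm against presomitic mesoderm. With doublet calls kept it was 1 for neural cells and 1 for lateral plate mesoderm, and with clusters 2 for somites and 3 for allantois. Barcodes under 0.3% mitochondrial UMIs kept 18 of 25 calls and gave 0 for neural cells, 2 for somites and 2 for surface ectoderm. The class with the highest mean was as reported for 8 of 8 genes, for 5 in replicate 2 alone and 7 in replicate 1 alone, and for 6 in the barcodes under 0.3%. Levels of a gene in a class moved by more than the SD between libraries in 37 of 64 cases in those barcodes, 22 of 72 with clusters, 18 of 64 at a lead of 2 markers, 15 of 80 with doublet calls kept, 5 of 64 at 3 markers and 2 of 64 at 5000 UMIs.

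Directions turned for 1 called value, Ackr3 in surface ectoderm against neural cells (0.21 in barcodes under 0.3%), and otherwise for values that had not passed. With clusters these were Cxcl12 (0.13) and Pdgfra (0.27) in neural cells, Apela in somites (0.46) and Pdgfa in lateral plate mesoderm (0.17, and 0.088 at a lead of 2 markers). In barcodes under 0.3% they were Pdgfra in neural cells (0.69) and somites (-0.18), Cxcl12 in lateral plate mesoderm (-0.029), Pdgfa in endothelium (-0.26) and Ackr3 in gut endoderm (0.17). The single libraries gave ranges of -0.050 to 1.97 for Apln in neural cells, -0.44 to 0.12 for Pdgfa in lateral plate mesoderm, -0.29 to 1.19 for Pdgfa in endothelium, -0.20 to 1.29 for Aplnr and -1.20 to 0.013 for Pdgfra in surface ectoderm, and -1.16 to 1.81 for Cxcl12 and -0.56 to 1.54 for Apela in allantois. The cause was not tested. Allantois fell under 50 cells at stricter gates, at 5000 UMIs and under 0.3%, so it was not run there, and Cxcr4 was too low for the test under 0.3%. Low counts limit Cxcr4 in surface ectoderm, Ackr3 in somites and endothelium and every gene in allantois.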
